A study of Mus musculus with 9 samples.

Results

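The genes described here were 49 regulators of DNA methylation, histone modification, chromatin remodeling and chromosome looping, chosen by name as a list of well-known members of 13 functional classes, and all 49 were found among the 56748 rows of the gene count table. They were measured by bulk RNA-seq in 9 libraries of mouse bone marrow SLAM-HSCs (hematopoietic stem cells sorted as Lin- Sca1+ c-*Kit*+ CD48- CD150+ cells), with 3 libraries in each of 3 groups. The yHSC group came from young mice of 6 to 10 weeks. The Selp_low paHSC and Selp_high paHSC groups came from pre-aged mice of 14 to 16 months, divided by the amount of P-selectin (the protein made by *Selp*, an adhesion molecule of megakaryocytes and platelets) on the cell surface. Per the study's methods the mice were female and on a C57BL/6 background, no transgene or treatment separated the groups, and pooling of animals was not stated for these libraries. The labels do not tie a library to an animal, so p-values measure the spread between libraries, whatever its source.

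Chromatin regulators act by adding marks to DNA or histones, removing them, reading them, or moving nucleosomes. DNA methyltransferases silence regulatory DNA and TET enzymes oxidise the methyl group away. Polycomb complexes write and read repressive marks on histones H3 and H2A, while trithorax-type methyltransferases and acetyltransferases mark active promoters and enhancers. CTCF and the cohesin ring together shape chromosome loops. In blood stem cells these genes are known for setting the balance between self-renewal and differentiation, and DNMT3A, TET2 and ASXL1 are the genes most often mutated when blood clones expand with age.

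The libraries held 24866975 to 35375310 counts. *Selp* itself measured 20.5 to 30.0 CPM (counts scaled to the TMM-adjusted library total) in yHSCs, 29.3 to 109 CPM in Selp_low paHSCs and 264 to 651 CPM in Selp_high paHSCs, which follows the sort labels without overlap between the Selp_high and the other libraries. All 10 HSC markers examined had counts in each library. They summed to 1036 to 2293 CPM in yHSCs, 819 to 1505 CPM in Selp_low paHSCs and 2172 to 3118 CPM in Selp_high paHSCs. The Selp_low sums thus lay below all Selp_high sums. RNA of other cell types was also present. The 9 B and plasma cell markers summed to 631 to 1356 CPM in yHSCs, 932 to 456667 CPM in Selp_low paHSCs and 2737 to 20864 CPM in Selp_high paHSCs, with the highest value in Selp_low replicate 2. The 9 neutrophil markers summed to 12462 to 63352 CPM, 539 to 204324 CPM and 1635 to 40239 CPM in the same order, with the highest value in Selp_low replicate 3. The 10 most abundant genes took 44.8% of the counts of Selp_low replicate 2, 20.9% of Selp_low replicate 3 and 3.90% to 12.5% of the others. TMM factors of 0.544 and 0.785 rescaled those 2 Selp_low libraries, against 1.05 to 1.22 elsewhere. In bulk RNA a lower level from fewer cells of a type and a lower level per cell cannot be told apart. The 8 megakaryocyte and platelet genes summed to 114 to 177, 148 to 2030 and 1035 to 6092 CPM in yHSC, Selp_low and Selp_high libraries. Of this list only *Gp1bb* was at 0 in the young libraries, and it was at most 0.515 CPM in any library. The T cell list (8 genes) reached 430 and 965 CPM in Selp_low replicates 1 and 2, against 11.1 to 66.9 CPM elsewhere, the macrophage list 90.5 to 647 CPM and the erythroid list 304 to 3283 CPM. The 12 cycling genes summed to 950 to 4173 CPM, highest in Selp_low replicate 3. Defining markers at 0 were *Pax5* in Selp_high replicate 3, *Cd4* in Selp_high replicate 3 and *Cd8a* in Selp_low replicate 3 and Selp_high replicate 3. What part these other cells and the level of HSC markers had in the results was not tested.

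Before the values, the promoters of 5 regulators are shown because these genes, of different roles, were among the 11 members whose values did not overlap between the paHSC fractions. Each run is the 250 bases before the RefSeq transcription start in the build GRCm38.p6, read 5′ to 3′ on the strand of the gene. Capitals mark matches on either strand to GGGCGG (the SP/KLF box), CCAAT (the NF-Y box), CCGGAAG (an ETS core) or TTCCCGC (an E2F core). Neighboring SP/KLF matches can share bases, as can an SP/KLF match beside an E2F match.
Dnmt3b (chr2:153649199-153649448, plus strand): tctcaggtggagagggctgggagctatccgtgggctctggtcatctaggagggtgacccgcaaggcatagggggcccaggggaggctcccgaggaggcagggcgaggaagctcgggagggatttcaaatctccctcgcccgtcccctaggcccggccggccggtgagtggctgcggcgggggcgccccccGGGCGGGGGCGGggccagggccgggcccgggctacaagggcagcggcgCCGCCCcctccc
Tet1 (chr10:62887325-62887574, minus strand): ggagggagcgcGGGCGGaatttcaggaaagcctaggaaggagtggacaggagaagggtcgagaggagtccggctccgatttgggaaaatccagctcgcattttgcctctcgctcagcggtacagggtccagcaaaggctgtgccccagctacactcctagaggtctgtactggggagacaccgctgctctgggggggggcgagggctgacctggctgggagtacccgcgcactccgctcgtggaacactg
Kdm1a (chr4:136602724-136602973, minus strand): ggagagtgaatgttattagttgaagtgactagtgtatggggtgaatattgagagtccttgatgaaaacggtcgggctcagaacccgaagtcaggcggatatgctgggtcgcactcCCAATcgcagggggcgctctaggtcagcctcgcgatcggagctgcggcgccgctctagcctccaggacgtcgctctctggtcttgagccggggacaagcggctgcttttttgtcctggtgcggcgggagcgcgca
Eed (chr7:89980977-89981226, minus strand): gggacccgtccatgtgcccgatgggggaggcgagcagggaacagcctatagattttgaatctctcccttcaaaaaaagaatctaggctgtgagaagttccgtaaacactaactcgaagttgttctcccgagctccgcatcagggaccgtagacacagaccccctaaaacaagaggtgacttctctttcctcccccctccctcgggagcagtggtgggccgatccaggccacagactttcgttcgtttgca
Ctcf (chr8:105636288-105636537, plus strand): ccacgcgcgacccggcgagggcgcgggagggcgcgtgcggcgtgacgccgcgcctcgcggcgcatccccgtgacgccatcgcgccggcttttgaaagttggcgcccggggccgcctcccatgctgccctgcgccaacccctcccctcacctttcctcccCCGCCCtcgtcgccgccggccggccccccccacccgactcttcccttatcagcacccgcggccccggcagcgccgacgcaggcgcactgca
*Dnmt3b*, *Tet1* and *Ctcf* held SP/KLF boxes, with 3, 1 and 1 matches, and *Kdm1a* held 1 CCAAT box. *Eed* held none of the 4 motifs. The 250 bases contained 21, 15, 21, 12 and 40 CpG dinucleotides in *Dnmt3b*, *Tet1*, *Kdm1a*, *Eed* and *Ctcf*. RefSeq promoters were matched for 41 of the 49 members, and 33 of them (80.5%) held GGGCGG, against 32.9% of all 27025 promoters of that length. CCAAT stood in 10 of the 41 (24.4%, against 34.5% of all), CCGGAAG in 6 (14.6%, against 7.05%) and TTCCCGC in 2 (4.88%, against 3.84%). The members' promoters held a median of 23 CpG dinucleotides against 6 over all promoters, and 40 of the 41 held 10 or more, against 38.2% of all. The exception was the window before the RefSeq start of *Dnmt1*, with 2 CpG dinucleotides. Whether these cells use that start was not tested. A match is a match of letters and not a measured binding site. The deposited table places the whole genes on mm39, a different build: *Dnmt3b* at chr2:153491370-153529650 (plus strand), *Tet1* at chr10:62640349-62744775 (minus strand), *Kdm1a* at chr4:136277851-136330034 (minus strand), *Eed* at chr7:89603862-89630191 (minus strand), *Ctcf* at chr8:106363200-106409554 (plus strand), *Dnmt3a* at chr12:3856007-3964443 (plus strand), *Tet2* at chr3:133169440-133250900 (minus strand), *Cbx2* at chr11:118913788-118922096 (plus strand) and *Kdm6b* at chr11:69289334-69304501 (minus strand).

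Levels are given as FPKM, computed from the counts, the deposited gene length and the TMM-scaled library total, so that genes of different length can be set side by side. Over the 9 libraries 17 members had a mean above 10 FPKM, 28 lay from 1 to 10 FPKM and 4 lay below 1 FPKM. The histone deacetylases were the most abundant class. *Hdac1*, which removes acetyl groups from histone tails, led the list at 49.5 to 78.3 FPKM, followed by *Hdac2* at 34.5 to 56.5 FPKM and *Hdac3* at 17.7 to 44.8 FPKM. *Sirt7* (a nuclear NAD-dependent deacetylase), *Bap1* (the deubiquitinase of histone H2A), *Eed* (the subunit of Polycomb repressive complex PRC2 that binds the methylated histone), *Ctcf*, *Rnf2* (the H2A ubiquitin ligase of PRC1) and *Smc3* (a cohesin arm) followed, with means of 31.6, 30.2, 29.5, 26.5, 24.97 and 21.2 FPKM. The large methyltransferases and TET enzymes stood at the other end, with means of 1.58 FPKM for *Kmt2a*, 1.46 for *Kmt2c*, 1.23 for *Kmt2d*, 0.758 for *Setd1a*, 0.907 for *Tet1*, 1.1004 for *Tet2* and 0.931 for *Tet3*. The ranges over the libraries of all 48 pairs of neighbors in this order overlapped.

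*Ctcfl* (BORIS, a testis paralog of *Ctcf*) was the lowest member. Its counts were 24, 0 and 4 in yHSC replicates 1 to 3, 8, 2 and 26 in Selp_low replicates 1 to 3, and 8, 48 and 10 in Selp_high replicates 1 to 3. A count of 0 in yHSC replicate 2 allows up to 3 counts, a limit that covers counting error only. The groups overlapped and each of them held a library under 10 counts, so no difference in *Ctcfl* was detectable at this depth.

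Variation between libraries differed among the members. The SD of log2(CPM + 0.1) over the 9 libraries was smallest for *Hdac1* (0.213), *Ctcf* (0.220), *Smc3* (0.223) and *Sirt7* (0.281), and largest among the members above 1 FPKM for *Kmt2d* (1.26), *Cbx2* (1.12), *Kdm6b* (1.09) and *Cbx7* (1.014). The mean level was highest in yHSCs for 26 of the 48 members other than *Ctcfl* (54.2%), against 31.4% of 13111 protein-coding genes. It was highest in Selp_low paHSCs for 12 (25%, against 33.5%) and in Selp_high paHSCs for 10 (20.8%, against 35.1%). It was lowest in yHSCs for 4 members (8.33%), against 31.0% of coding genes. Selp_low paHSCs had the lowest mean for 21 (43.8%, against 39.9%) and Selp_high paHSCs for 23 (47.9%, against 29.1%).

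**Figure D1:**
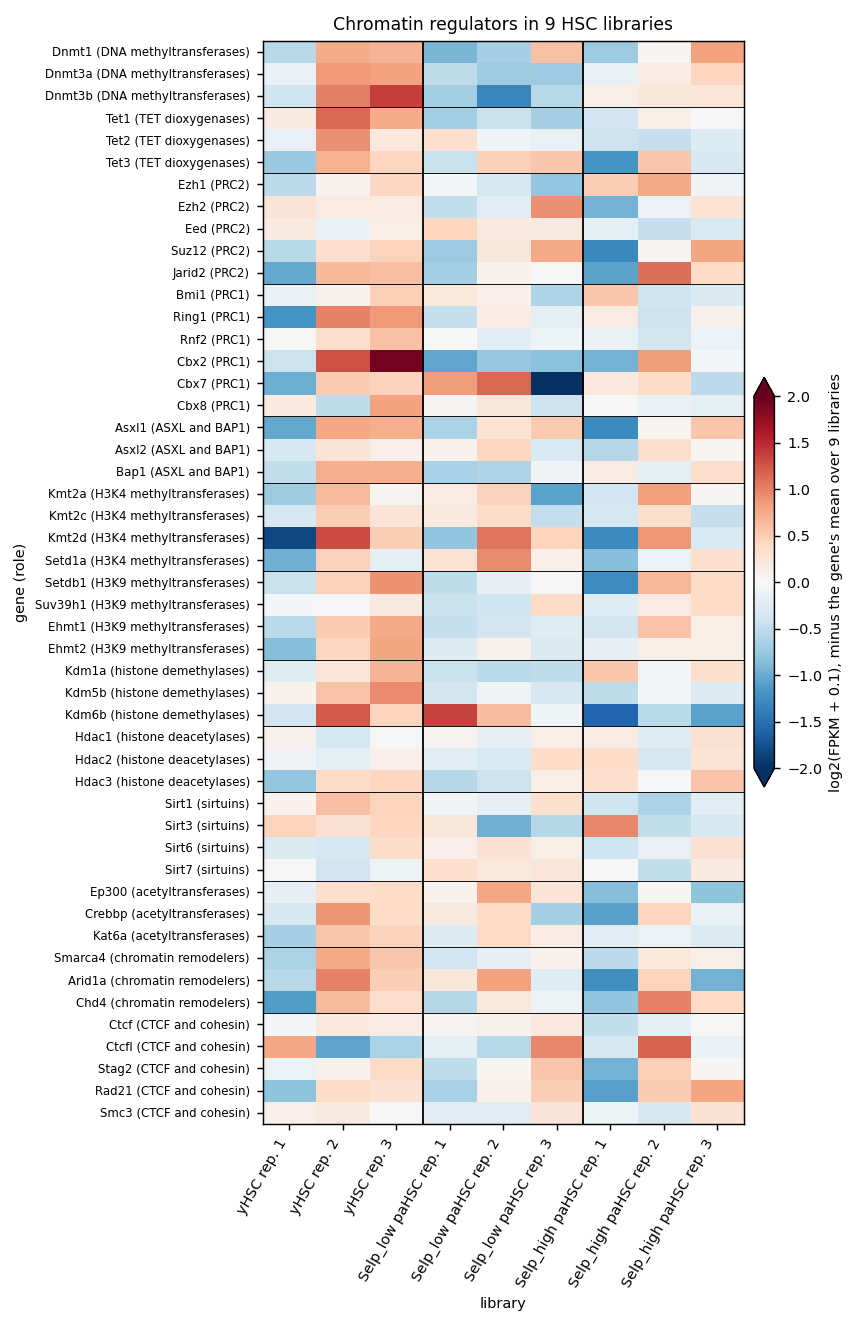
Heatmap of the 49 chromatin regulators (rows, grouped by role) in the 9 libraries (columns, 3 per group), as log2(FPKM + 0.1) minus the gene's mean over the libraries, with the color scale limited to 2 in each direction. Replicates 2 and 3 of yHSCs are red for most rows, and yHSC replicate 1 and Selp_high replicate 1 are blue for many, among them *Jarid2*, *Asxl1* and *Kmt2d*.

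Replicate 1 of each group stood apart for many regulators. Of the 48 members, 18 (37.5%) were lowest in replicate 1 in each of the 3 groups, against 14.4% of the 13111 coding genes. They included *Dnmt1*, *Suz12*, *Jarid2*, *Asxl1*, *Kmt2d*, *Setdb1*, *Smarca4*, *Chd4* and *Rad21*. *Rad21*, the cohesin subunit that closes the ring, measured 6.80, 15.4 and 14.6 FPKM in yHSC replicates 1 to 3, 7.58, 12.6 and 16.7 FPKM in Selp_low replicates 1 to 3 and 5.56, 17.0 and 20.7 FPKM in Selp_high replicates 1 to 3. *Jarid2*, which recruits PRC2, measured 1.65, 5.46 and 5.27, 2.12, 3.62 and 3.43 and 1.59, 7.52 and 4.45 FPKM in the same order. In both genes the spread inside each group was wider than the differences between group means. The 24 members longer than the members' median of 6487 bases had a median of -0.49 in yHSC replicate 1, -0.43 in Selp_low replicate 1 and -0.85 in Selp_high replicate 1, as log2(CPM + 0.1) relative to each gene's mean, and from -0.08 to 0.66 in the other 6 libraries. The 24 shorter members had -0.20, -0.21 and -0.04 in those 3 libraries and from -0.17 to 0.45 in the others. Coding genes longer than 6487 bases had -0.145, -0.126 and -0.378 in the 3 first replicates. Shorter coding genes had -0.146, -0.045 and 0.153 there, so the 2 length classes of coding genes were alike in yHSC replicate 1. The level of the longer members thus moved with the replicate number, and the part of gene length in the values below was not tested.

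**Figure D2:**
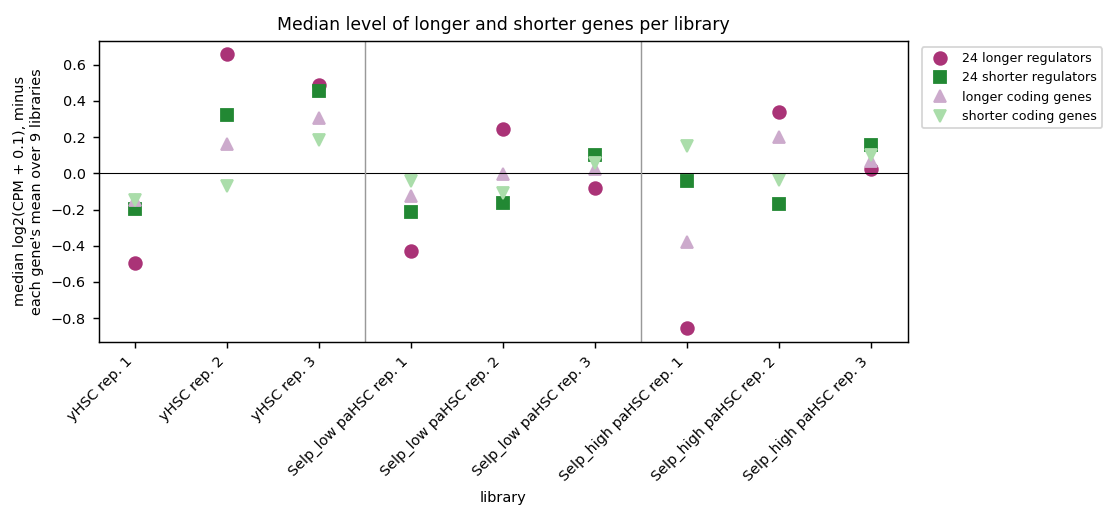
Median level per library (x axis) of the 24 longer and 24 shorter chromatin regulators and of longer and shorter protein-coding genes, as log2(CPM + 0.1) minus each gene's mean over the 9 libraries (y axis). Replicate 1 of each group has the lowest value for the longer regulators, down to -0.85 in Selp_high replicate 1.

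The comparison of Selp_high with Selp_low paHSCs asked how the fractions of the pre-aged pool differ. The DNA methyltransferases *Dnmt3a* and *Dnmt3b*, the dioxygenase *Tet1* and the demethylase *Kdm1a* were higher in every Selp_high library than in every Selp_low library, by 1.53 to 2.05 times in mean FPKM. *Kdm6b*, *Ep300*, *Eed*, *Tet2*, *Sirt1*, *Sirt7* and *Ctcf* were lower in every Selp_high library, with means 0.262 to 0.798 times those of Selp_low paHSCs. A gene was called where the adjusted p was at most 0.05 and the log2 fold change was 1 or more in either direction. edgeR's quasi-likelihood test called 0 of the 49 members and 0 of all 20370 genes tested (0%), while DESeq2 called 589 of 25807 genes (2.28%) and 0 members.

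At an unadjusted p under 0.05, edgeR's test had 7 of 49 members (14.3%), against 12.5% of all genes tested. Groups without overlap were seen in 4 members with higher values in Selp_high paHSCs (8.16%, against 10.3% of all genes) and in 7 with lower values (14.3%, against 10.7%). These shares lay near those of all genes. The direction depended on whether the library totals were scaled. Unscaled totals gave 11 members higher and 0 lower without overlap and moved the median of all genes to 0.37. They make no allowance for the 10 genes that took 44.8% of Selp_low replicate 2. RLE and upper-quartile factors gave the members median log2 fold changes of -0.008 and -0.045. The median log2 fold change of the members was 0.01 and that of all genes was -0.11. The longer members had -0.16 and the shorter 0.10, against -0.04 and -0.13 for all genes over and under 6487 bases. No label pairs the paHSC libraries, and their replicate numbers were taken as pairs only from correlations over genes. With the replicate number as a block edgeR again called 0 members. DESeq2 with that block called 2, *Dnmt3b* and *Kdm6b*, beside 9.45% of all genes.

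All 3 DNA methyltransferases had positive log2 fold changes. *Dnmt3b*, which sets methylation at new sites, measured 4.76, 3.07 and 5.25 FPKM in Selp_low replicates 1 to 3 and 8.43, 9.16 and 9.27 FPKM in Selp_high replicates 1 to 3. The Selp_high libraries lay close together and all above the Selp_low libraries. For *Dnmt3b* this gave a log2 fold change of 1.03 ± 0.28 (SE) and an edgeR adjusted p of 0.338. DESeq2 with the replicate block gave a log2 fold change of 1.06 and an adjusted p of 0.0134. Its close relative *Dnmt3a* measured 2.26, 1.94 and 1.92 FPKM in Selp_low and 2.92, 3.65 and 4.39 FPKM in Selp_high replicates 1 to 3, again without overlap. edgeR estimated *Dnmt3a* at 0.83 ± 0.25 on the log2 scale (SE, adjusted p = 0.338). *Dnmt1*, which copies methylation after replication, overlapped widely, with 7.82, 9.34 and 22.3 and 8.96, 15.3 and 25.9 FPKM. Leaving out Selp_low replicate 2, the library rich in B and plasma cell RNA, gave log2 fold changes of 0.86 for *Dnmt3b* and 0.82 for *Dnmt3a*, and leaving out replicate 3, the library rich in neutrophil RNA, gave 1.18 and 0.79.

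The TET dioxygenases, which start the removal of DNA methylation, did not share a direction. *Tet1* measured 0.469, 0.571 and 0.480 FPKM in Selp_low and 0.601, 0.901 and 0.820 FPKM in Selp_high replicates 1 to 3. *Tet1* had a log2 fold change of 0.60 ± 0.33 (SE, edgeR adjusted p = 0.504). *Tet2*, a gene of age-related clonal expansion, measured 1.35, 1.00 and 0.953 and 0.756, 0.737 and 0.865 FPKM, with every Selp_high library below every Selp_low library. *Tet2* had a log2 fold change of -0.50 ± 0.29 (SE, edgeR adjusted p = 0.532). The ratio of *Tet1* to *Tet2* within a library, which does not depend on scaling between libraries, was 0.348, 0.569 and 0.504 in Selp_low and 0.795, 1.22 and 0.948 in Selp_high replicates 1 to 3. *Tet3* overlapped between the fractions, with 0.591, 1.20 and 1.27 FPKM in Selp_low and 0.314, 1.29 and 0.653 FPKM in Selp_high replicates. The ratios of *Tet1* to *Tet2* did not overlap, and the difference in log2 ratio was 1.07 (exact permutation test, two-sided, p = 0.1, the smallest p that 3 against 3 libraries allow). With *Tet1* higher and *Tet2* lower in every Selp_high library, the ratio had to separate. Its p therefore adds nothing to the values of the single genes. Among the 11 ratios of related members examined, only that of *Tet1* to *Tet2* had no overlap between groups, here and in the comparison of Selp_low paHSCs with yHSCs.

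Of all members, *Kdm6b* had the log2 fold change farthest from 0. *Kdm6b*, a histone demethylase that removes the repressive methylation of H3K27, measured 2.95, 1.73 and 1.03 FPKM in Selp_low and 0.301, 0.727 and 0.473 FPKM in Selp_high replicates 1 to 3. Each Selp_high library was under each Selp_low library, although the Selp_low values themselves were widely spread. For *Kdm6b* this gave a log2 fold change of -1.94 ± 0.55 (SE) and an edgeR adjusted p of 0.338. DESeq2 gave an adjusted p of 0.0518, and 0.00768 with the replicate block. DESeq2 called 1255 genes in all without Selp_low replicate 3 and 2400 without Selp_high replicate 2, against 589 with every library. It called *Kdm6b* in those fits (adjusted p = 0.00487 and 0.0132), but not with any of the other 4 libraries left out (DESeq2 adjusted p from 0.152 to 0.246). *Kdm1a* (LSD1, an H3K4 demethylase) ran the other way with 12.1, 11.4 and 11.6 FPKM in Selp_low, 3 nearly equal values, and 24.2, 16.2 and 20.7 FPKM in Selp_high replicates. edgeR estimated *Kdm1a* at 0.79 ± 0.23 on the log2 scale (SE, adjusted p = 0.338). *Kdm5b*, which acts on trimethylated H3K4, overlapped with 2.46, 3.06 and 2.54 and 2.23, 3.12 and 2.66 FPKM.

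Among acetyltransferases *Ep300*, a coactivator that acetylates enhancers, measured 1.87, 3.13 and 2.14 FPKM in Selp_low and 0.937, 1.80 and 0.979 FPKM in Selp_high replicates 1 to 3. The fold of Selp_high over Selp_low for *Ep300* was, in log2, -0.95 ± 0.38 (SE, edgeR adjusted p = 0.383). Its paralog *Crebbp* overlapped, with 2.70, 3.096 and 1.47 and 1.07, 3.26 and 2.16 FPKM. Among sirtuins, *Sirt1* measured 4.23, 3.88 and 5.49 FPKM in Selp_low and 3.30, 2.79 and 3.76 FPKM in Selp_high replicates. *Sirt1* had a log2 fold change of -0.47 ± 0.28 (SE, edgeR adjusted p = 0.541). *Sirt7* measured 38.9, 35.9 and 36.7 and 31.2, 22.1 and 35.4 FPKM, with only a small gap between the groups. For *Sirt7* this gave a log2 fold change of -0.34 ± 0.26 (SE) and an edgeR adjusted p of 0.626. Unscaled library totals turned the sign of *Sirt7* to 0.11.

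Polycomb members differed among themselves. In PRC2, *Eed* measured 38.9, 33.1 and 32.8 FPKM in Selp_low and 25.5, 20.9 and 23.4 FPKM in Selp_high replicates 1 to 3. edgeR estimated *Eed* at -0.59 ± 0.22 on the log2 scale (SE, adjusted p = 0.360). The catalytic subunits *Ezh1* and *Ezh2*, which methylate H3K27, overlapped between the groups. *Ezh1* measured 9.17, 7.37 and 5.46 and 13.2, 15.99 and 8.89 FPKM, and *Ezh2* measured 7.44, 9.09 and 19.996 and 5.43, 9.71 and 12.8 FPKM. In PRC1, 0 of 6 members were without overlap. *Cbx2*, a reader of methylated H3K27, was at 0.970, 1.21 and 1.15 FPKM in the Selp_low libraries and at 1.05, 3.83 and 2.07 FPKM in the Selp_high libraries, where replicate 1 lay inside the Selp_low range.

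*Ctcf*, the insulator protein whose motif the study examined in open chromatin, measured 27.2, 27.9 and 30.1 FPKM in Selp_low and 18.6, 23.0 and 26.3 FPKM in Selp_high replicates 1 to 3. Each Selp_high library was below each Selp_low library, by a small margin for replicate 3. *Ctcf* had a log2 fold change of -0.33 ± 0.23 (SE, edgeR adjusted p = 0.594). With unscaled library totals the sign of *Ctcf* turned to 0.14. By qPCR the study reported trends of higher *Ctcf* and *Ctcfl* in Selp_high paHSCs, and it found CTCF motifs enriched in their open chromatin. For *Ctcf* that is the other direction from the scaled counts here. The cohesin members *Stag2*, *Rad21* and *Smc3* overlapped, and their log2 fold changes were -0.12, 0.22 and 0.01. *Asxl1*, a partner of *Bap1*, overlapped as well with 3.08, 5.84 and 6.93 and 1.94, 5.03 and 7.14 FPKM. *Asxl1* had a log2 fold change of -0.17 ± 0.52 (SE, edgeR adjusted p = 0.916). That of *Ctcfl*, with the few counts given above, was 0.28 ± 1.13 (SE, edgeR adjusted p = 0.939).

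**Figure D3:**
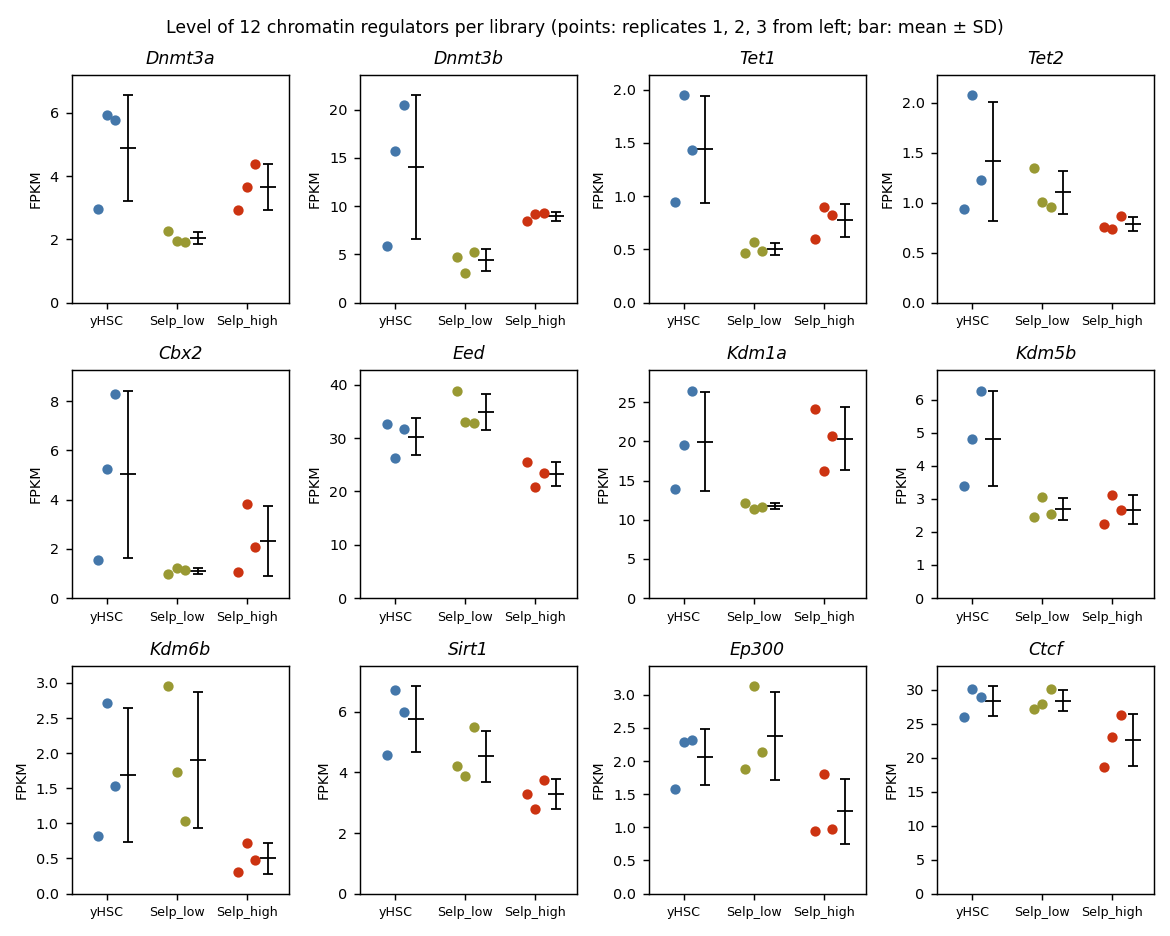
FPKM (y axis, from 0) of 12 chromatin regulators in yHSC, Selp_low and Selp_high libraries. Points are replicates 1, 2 and 3 from left to right and bars are mean ± SD (n = 3). Selp_low points of *Dnmt3a*, *Dnmt3b*, *Tet1* and *Kdm1a* lie below all points of the other groups, and Selp_high points of *Kdm6b*, *Eed* and *Sirt1* lie below all points of the other groups.

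The comparison of Selp_low paHSCs with yHSCs asked what differed between the young pool and the pre-aged fraction with little surface P-selectin. *Dnmt3a*, *Dnmt3b*, *Tet1*, *Cbx2*, *Kdm1a*, *Kdm5b* and *Sirt3* were lower in every Selp_low library than in every young library, with means 0.221 to 0.596 times those of yHSCs. Only *Eed* and *Sirt7* were higher in every Selp_low library. edgeR called 0 of the 48 members tested (0% of all 20437 genes called). DESeq2 called 2 members, *Tet1* and *Cbx2*, both lower, beside 517 of 17508 genes (2.95%).

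At an unadjusted p under 0.05 edgeR's test had 6 of 48 members (12.5%), all lower, against 11.3% of all genes. No overlap was seen in 7 members with lower values (14.6%, against 6.76% of all genes) and in 2 with higher values (4.17%, against 9.59%). The median log2 fold change of the members was -0.17, and that of all genes was 0.08. Genes longer than 6487 bases had -0.04 and shorter ones 0.12, while the 24 longer members had -0.11 and the 24 shorter -0.20. Of the members 16 of 48 (33.3%) were above 0, against 55.1% of all genes. With unscaled library totals 16 members were lower and 0 higher without overlap, and the median of all genes was -0.47. The gap to all genes depended on single libraries. The members' median was -0.46 against 0.24 for all genes without yHSC replicate 1, -0.02 against -0.03 without yHSC replicate 2, -0.02 against 0.10 without yHSC replicate 3, and -0.30 without Selp_low replicate 2 or 3. The Selp_low libraries are shared with the comparison above, so the values that recur there are not a second observation.

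*Cbx2* measured 1.54, 5.24 and 8.30 FPKM in yHSC and 0.970, 1.21 and 1.15 FPKM in Selp_low replicates 1 to 3. The young values were widely spread, and the lowest of them stood just above the Selp_low libraries. For *Cbx2* this gave a log2 fold change of -2.11 ± 0.58 (SE) and an edgeR adjusted p of 0.332. DESeq2 gave -2.12 and an adjusted p of 0.0322. *Tet1* measured 0.940, 1.95 and 1.44 FPKM in yHSC replicates, and its Selp_low values of 0.469, 0.571 and 0.480 FPKM were the lowest of the 3 groups. edgeR estimated *Tet1* at -1.45 ± 0.33 on the log2 scale (SE, adjusted p = 0.332). DESeq2 gave -1.50 and an adjusted p of 0.0403. The ratio of *Tet1* to *Tet2* was 1.007, 0.938 and 1.17 in yHSC replicates 1 to 3, above the Selp_low ratios without overlap, and the log2 ratio differed by -1.16 (exact permutation test, two-sided, p = 0.1). DESeq2's calls of *Tet1* and *Cbx2* were lost without any 1 of yHSC replicate 2 (adjusted p = 0.357 and 0.190), yHSC replicate 3 (0.311 and 0.517), Selp_low replicate 1 (0.0863 and 0.0850) or Selp_low replicate 2 (0.110 and 0.143). Calls over all genes in these fits were 207, 135, 704 and 139.

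*Dnmt3a* measured 2.94, 5.93 and 5.76 FPKM in yHSC replicates 1 to 3, against 2.26, 1.94 and 1.92 FPKM in Selp_low replicates. The fold of Selp_low over yHSC for *Dnmt3a* was, in log2, -1.20 ± 0.30 (SE, edgeR adjusted p = 0.332). *Dnmt3b* measured 5.87, 15.7 and 20.5 FPKM in yHSC replicates, with replicate 1 close to the highest Selp_low value of 5.25 FPKM. *Dnmt3b* had a log2 fold change of -1.62 ± 0.46 (SE, edgeR adjusted p = 0.332). Both genes were called by DESeq2, with *Tet1* and *Cbx2*, once yHSC replicate 1 was left out (adjusted p = 0.00244 and 0.000557) and once Selp_low replicate 3 was left out (0.0497 and 0.0218). Calls over all genes also rose in these fits, to 2510 and 1556, against 517 with every library. Without Selp_low replicate 2 the edgeR log2 fold changes were -1.22 for *Dnmt3a* and -1.49 for *Dnmt3b*. Selp_low replicate 1, which stayed in that fit, held 21372 CPM of B and plasma cell markers, and their part in these values was not tested.

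*Kdm5b* measured 3.37, 4.82 and 6.26 FPKM in yHSC and 2.46, 3.06 and 2.54 FPKM in Selp_low replicates 1 to 3. For *Kdm5b* this gave a log2 fold change of -0.78 ± 0.27 (SE) and an edgeR adjusted p of 0.362. *Kdm1a* measured 13.9, 19.6 and 26.4 FPKM in yHSC replicates, all above its Selp_low values. edgeR estimated *Kdm1a* at -0.71 ± 0.26 on the log2 scale (SE, adjusted p = 0.376). *Sirt3*, a mitochondrial sirtuin, was even across the young libraries at 24.5, 22.3 and 24.3 FPKM and spread over 21.1, 9.20 and 12.1 FPKM in Selp_low replicates. *Sirt7* measured 31.4, 23.96 and 29.0 FPKM in yHSC and 38.9, 35.9 and 36.7 FPKM in Selp_low replicates. *Sirt7* had a log2 fold change of 0.44 ± 0.23 (SE, edgeR adjusted p = 0.534). *Eed* measured 32.7, 26.3 and 31.7 FPKM in yHSC replicates, with replicate 1 just under the lowest Selp_low library. *Eed* had a log2 fold change of 0.25 ± 0.22 (SE, edgeR adjusted p = 0.797). Unscaled library totals turned the signs of *Sirt7* and *Eed* to -0.11 and -0.29. All 4 methyltransferases of H3K9 (*Setdb1*, *Suv39h1*, *Ehmt1* and *Ehmt2*) had log2 fold changes below 0, from -0.64 to -0.11, and all of them overlapped.

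*Ctcf*, *Tet2* and *Asxl1* overlapped between Selp_low paHSCs and yHSCs. *Ctcf* measured 25.9, 30.1 and 29.0 FPKM in yHSC replicates 1 to 3 and had nearly the same mean in both groups. For *Ctcf* this gave a log2 fold change of 0.05 ± 0.20 (SE) and an edgeR adjusted p of 0.990. *Tet2* measured 0.934, 2.08 and 1.23 FPKM in yHSC replicates. edgeR estimated *Tet2* at -0.30 ± 0.35 on the log2 scale (SE, adjusted p = 0.880). *Asxl1* measured 2.33, 8.31 and 8.05 FPKM in yHSC replicates, of which the first was the lowest young value by far. The fold of Selp_low over yHSC for *Asxl1* was, in log2, -0.18 ± 0.51 (SE, edgeR adjusted p = 0.984). *Ctcfl* was not tested here because its counts were too low.

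The comparison of Selp_high paHSCs with yHSCs asked what differed between the young pool and the pre-aged fraction with much surface P-selectin. *Kdm6b*, *Tet1*, *Tet2*, *Kdm5b*, *Sirt1*, *Rnf2* and *Eed* were lower in every Selp_high library than in every young library, with means 0.297 to 0.769 times those of yHSCs, and no member was higher without overlap. edgeR called 0 of 49 members, beside 33 of 20017 genes (0.165%), and DESeq2 called 0 members, beside 2.78% of 21436 genes. At an unadjusted p under 0.05 edgeR's test had 6 members (12.2%), all lower, against 7.59% of all genes.

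No overlap with lower values was seen in 7 members (14.3%, against 5.28% of all genes), and with higher values in 0 (against 8.53%). The median log2 fold change of the members was -0.28 and that of all genes was -0.03. Of the members 12 of 49 (24.5%) were above 0, against 47.8% of all genes. The members were long, and all genes longer than 6487 bases had a median of -0.17 in this comparison, against 0.01 for shorter genes, while the 24 longer members had -0.42 and the 25 others -0.16. RLE and upper-quartile factors gave the members -0.28 and -0.26 against -0.05 for all genes, DESeq2 gave -0.28 against -0.13 and no filter -0.27 against -0.11. This gap to all genes also depended on single libraries. Without yHSC replicate 1 the members' median was -0.42 against 0.11 for all genes, and without yHSC replicate 2 it was -0.12 against -0.08. Without Selp_high replicate 1 it was -0.14 against -0.01. DESeq2's median of all genes also covers the low-count genes that edgeR's filter removes. On that set the members lay above all genes without yHSC replicate 2 (-0.12 against -0.20). The same held without Selp_high replicate 2 (-0.40 against -0.66), where edgeR had the members below (-0.38 against -0.10).

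*Kdm6b* measured 0.819, 2.71 and 1.53 FPKM in yHSC replicates 1 to 3, and its Selp_high values of 0.301, 0.727 and 0.473 FPKM reached almost up to the lowest young library. *Kdm6b* had a log2 fold change of -1.78 ± 0.57 (SE, edgeR adjusted p = 0.434). DESeq2 called 836 genes in all without yHSC replicate 1 and 675 without Selp_high replicate 2, against 596 with every library. It called *Kdm6b* in those fits (adjusted p = 0.0128 and 0.0276), but not with any of the other 4 libraries left out (DESeq2 adjusted p from 0.182 to 0.601, the last without yHSC replicate 2). *Kdm5b*, at 2.23, 3.12 and 2.66 FPKM in Selp_high replicates, stood below the young values given above, as it did in the other pre-aged fraction. For *Kdm5b* this gave a log2 fold change of -0.87 ± 0.28 (SE) and an edgeR adjusted p of 0.455. *Sirt1* measured 4.58, 6.71 and 5.99 FPKM in yHSC replicates 1 to 3, and the Selp_high libraries lay lower still. edgeR estimated *Sirt1* at -0.84 ± 0.28 on the log2 scale (SE, adjusted p = 0.476). *Rnf2* measured 24.3, 31.1 and 36.9 FPKM in yHSC and 22.2, 19.0 and 22.6 FPKM in Selp_high replicates, with a narrow spread in the latter. *Rnf2* had a log2 fold change of -0.56 ± 0.23 (SE, edgeR adjusted p = 0.635).

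*Tet1* and *Tet2* were both below the young libraries, and their ratio overlapped between Selp_high paHSCs and yHSCs (difference in log2 ratio -0.09, exact permutation test, two-sided, p = 0.8). *Tet1* had a log2 fold change of -0.93 ± 0.37 (SE, edgeR adjusted p = 0.612). For *Tet2* this gave a log2 fold change of -0.89 ± 0.37 (SE) and an edgeR adjusted p of 0.647. For *Dnmt3a* the Selp_high libraries overlapped with the young ones. edgeR estimated *Dnmt3a* at -0.44 ± 0.32 on the log2 scale (SE, adjusted p = 0.907). *Ctcf* was lower in 2 of the 3 Selp_high libraries than in every young library. The fold of Selp_high over yHSC for *Ctcf* was, in log2, -0.36 ± 0.23 (SE, edgeR adjusted p = 0.870). *Asxl1* had a log2 fold change of -0.43 ± 0.59 (SE, edgeR adjusted p = 0.998). That of *Ctcfl* was 0.81 ± 1.72 (SE, edgeR adjusted p = 0.999). All 6 members of PRC1 had log2 fold changes below 0, from -1.11 for *Cbx2* to -0.09 for *Cbx7*, and *Rnf2* was the only one of them without overlap. The 3 histone deacetylases had log2 fold changes of 0.14 to 0.19 and overlapped.

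**Figure D4:**
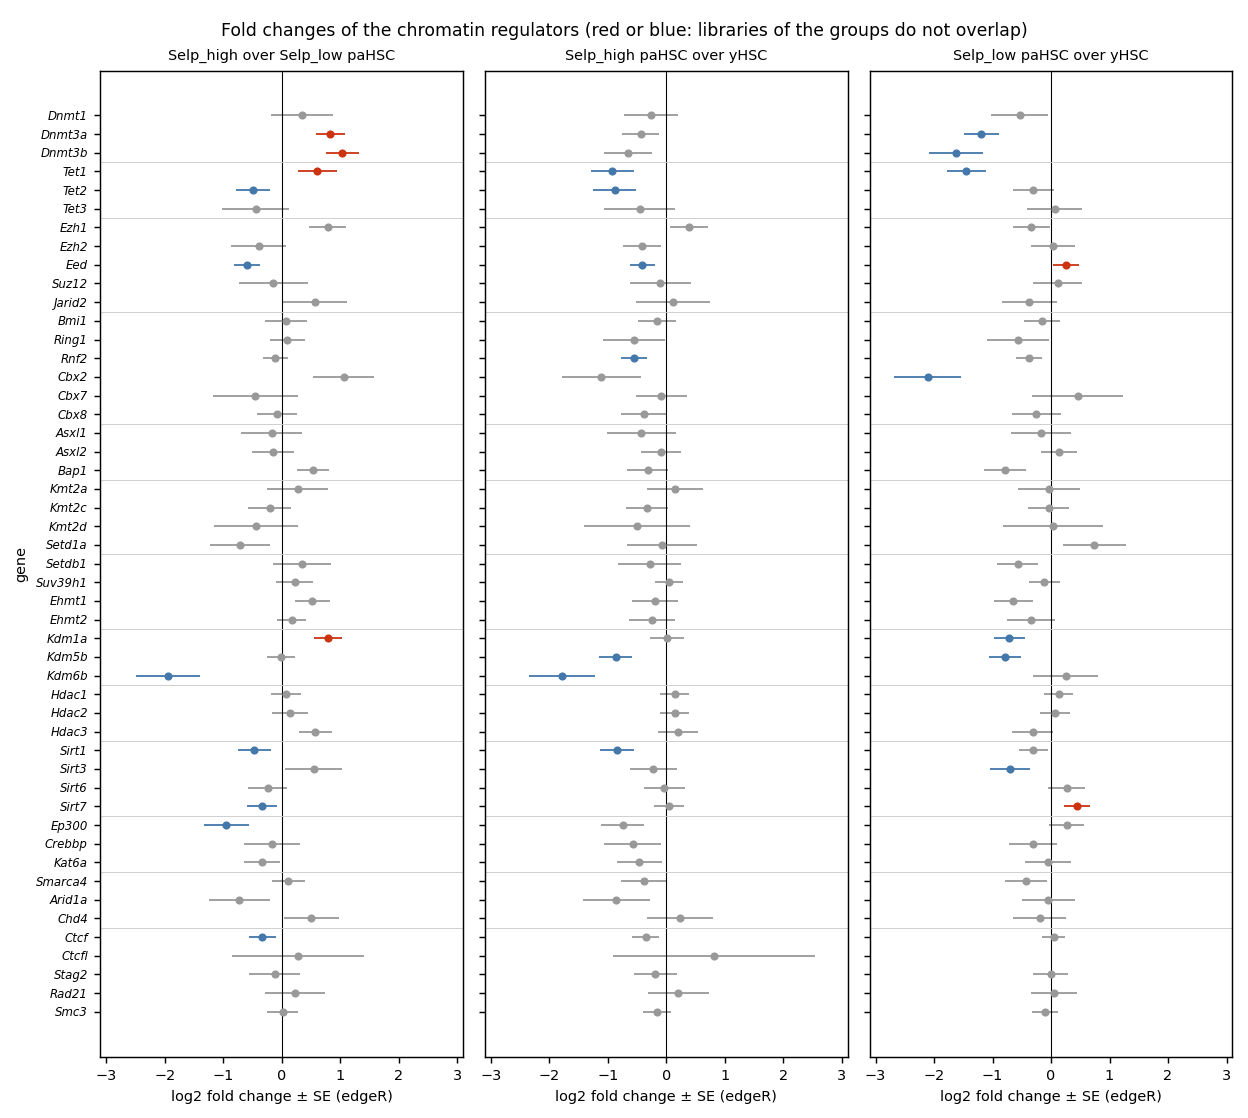
Log2 fold change ± SE (x axis, edgeR) of each chromatin regulator (y axis) in the 3 comparisons. Red and blue points mark members whose groups do not overlap, higher and lower in the group named first, and the points of both comparisons with yHSCs lie mostly left of 0 (37 of 49 and 32 of 48 members).

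The remaining classes overlapped between groups in all 3 comparisons. The methyltransferases of H3K4, which mark active promoters and enhancers (*Kmt2a*, *Kmt2c*, *Kmt2d* and *Setd1a*), had log2 fold changes of -0.71 to 0.28 in Selp_high over Selp_low, -0.50 to 0.14 in Selp_high over yHSC and -0.04 to 0.74 in Selp_low over yHSC. *Setd1a* had the value farthest from 0 among them in both comparisons with Selp_low paHSCs, at 0.309, 0.995 and 0.603 FPKM in yHSC, 0.859, 1.44 and 0.750 FPKM in Selp_low and 0.338, 0.635 and 0.893 FPKM in Selp_high replicates 1 to 3. The remodelers, which slide or evict nucleosomes (*Smarca4*, *Arid1a* and *Chd4*), spanned -0.73 to 0.50, -0.86 to 0.23 and -0.42 to -0.05 in the same order. *Arid1a*, a subunit of the BAF complex, had the lowest of these values in both comparisons with Selp_high paHSCs, at 3.01, 9.02 and 6.33 FPKM in yHSC, 5.27, 7.89 and 3.77 FPKM in Selp_low and 1.85, 6.16 and 2.27 FPKM in Selp_high replicates. *Bap1* was at 20.2, 47.2 and 47.2 FPKM in yHSC, 18.1, 18.6 and 27.4 FPKM in Selp_low and 32.0, 24.8 and 36.4 FPKM in Selp_high replicates, where the first young library lay inside the Selp_low range. *Hdac1* stayed within 49.5 to 78.3 FPKM over all libraries and *Hdac2* within 34.5 to 56.5 FPKM. Of the acetyltransferases, *Kat6a* spanned 1.05 to 2.57 FPKM. Of PRC2, *Suz12* spanned 3.21 to 13.8 FPKM, and of PRC1, *Bmi1* spanned 10.7 to 23.95, *Ring1* 3.62 to 16.7, *Cbx7* 1.61 to 15.1 and *Cbx8* 1.86 to 4.77 FPKM. *Asxl2* spanned 0.957 to 2.03, *Sirt6* 2.72 to 4.73, *Stag2* 4.74 to 13.7 and *Smc3* 16.8 to 25.7 FPKM. The H3K9 methyltransferases *Setdb1*, *Suv39h1*, *Ehmt1* and *Ehmt2* spanned 1.91 to 8.85, 8.30 to 14.9, 4.30 to 10.7 and 4.43 to 14.001 FPKM.

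A list of 156 other chromatin genes, holding further members of the same classes, was read in the same fits. edgeR called 0 of them in each comparison, and DESeq2 called 1 in Selp_high against Selp_low paHSCs and 0 in both comparisons with yHSCs. In Selp_high against Selp_low paHSCs 22 (14.1%) had an unadjusted p under 0.05, against 12.5% of all genes, and no overlap was seen in 17 with higher values (10.9%, against 10.3%) and in 12 with lower values (7.69%, against 10.7%). The gene called by DESeq2 was *Cbx6*, another Polycomb reader of the family of *Cbx2*. *Cbx6* measured 3.89, 3.81 and 3.35 FPKM in Selp_low and 9.004, 12.6 and 8.86 FPKM in Selp_high replicates 1 to 3, and 3.00, 9.26 and 12.2 FPKM in yHSC replicates (log2 fold change 1.45 ± 0.25, edgeR adjusted p = 0.338, DESeq2 adjusted p = 0.0296). *Baz1a*, a subunit of an ISWI remodeler, had the lowest log2 fold change among the 12 lower genes, at 12.9, 12.7 and 18.8 FPKM in Selp_low and 3.84, 5.16 and 8.86 FPKM in Selp_high replicates (log2 fold change -1.32 ± 0.37, edgeR adjusted p = 0.338).

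Against yHSCs most genes of the wider list had negative log2 fold changes. In Selp_high paHSCs 114 of 156 genes and in Selp_low paHSCs 101 of 156 had log2 fold changes below 0, with medians of -0.24 and -0.13. An unadjusted p under 0.05 in edgeR's test was found for 8 (5.13%, against 7.59% of all genes) and 11 (7.05%, against 11.3%), shares below those of all genes. Without overlap were 14 lower (8.97%, against 5.28% of all genes) and 3 higher genes (1.92%, against 8.53%) in Selp_high paHSCs. In Selp_low paHSCs 9 were lower (5.77%, against 6.76%) and 5 higher (3.21%, against 9.59%). *Kdm3a*, an H3K9 demethylase, was lower than in yHSCs in both fractions, at 5.71, 9.99 and 10.4 FPKM in yHSC, 5.12, 5.61 and 5.23 FPKM in Selp_low and 4.85, 4.11 and 4.80 FPKM in Selp_high replicates. *Chd7*, a remodeler of the CHD family, was higher in Selp_low paHSCs at 3.52, 2.40 and 3.15 FPKM than in yHSCs at 1.62, 1.08 and 0.866 FPKM (log2 fold change 1.37 ± 0.34, edgeR adjusted p = 0.332). Both comparisons use the same 3 young libraries, of which replicate 1 was lowest for 39 of the 48 members.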

How the data were processed

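Per the labels and the study's methods, RNA of sorted SLAM-HSCs (RNeasy Mini *Kit*) was amplified with a SMARTer Ultra Low RNA kit and made into libraries with a TruePrep kit, so that PCR copies were counted as reads. The submitters' processing notes name CASAVA 1.8, HISAT2 2.2.1, featureCounts 2.0.6 and DESeq2 1.42.0 and the build mm39. Neither the annotation release nor the strand setting nor the treatment of multiply mapped reads is given in the sources used here. The authors deposited raw read counts per gene with a gene length, and each of the 9 columns was matched to its sample by name.

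From these counts, edgeR 4.0.16 (R 4.3.3) compared each pair of groups over the 6 libraries of the pair: filterByExpr, TMM factors and the quasi-likelihood test, with p-values of all tested genes adjusted by Benjamini-Hochberg. A call needed an adjusted p of at most 0.05 and a log2 fold change of 1 or more in either direction. DESeq2 1.42.0, limma 3.58.1 (voom with quality weights), other factors and filters, and leaving out each library were alternatives. FPKM used TMM factors over all 9 libraries and the deposited length, and Python 3.11.15 (pandas 2.3.3, numpy 2.4.6, scipy 1.17.1, matplotlib 3.10.9) computed levels, exact tests and figures. edgeR's fit was tested on simulated data with 200 changed genes. Depth was 24866975 to 35375310 counts per library, and a count of 0 allows up to 3 counts.

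The members and lists were chosen with earlier results of these data known. All members may be named with levels. Folds with errors are given for members the study names (*Ctcf*, *Ctcfl*, *Dnmt3a*, *Tet2*, *Asxl1*), members called by edgeR or DESeq2, and up to 6 per direction and comparison with the largest fold and no overlap. Of the 156 other chromatin genes, those called and up to 4 per direction and comparison were open to naming. Same-numbered Selp_high and Selp_low libraries deviated together from their group means (r = 0.226, 0.335 and 0.341 over genes, each above 0.1). The replicate numbers were therefore taken to pair them, although no label does. Libraries of different age and number reached as high, such as Selp_high replicate 1 with yHSC replicate 2 (r = 0.398). The r values thus do not establish pairs.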

Additional observations from a re-analysis of the deposited data

How the results depend on the processing

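Most values kept their direction and their side of the threshold: 772 of the values of single members and 148 of those that answer a comparison. edgeR's count of called members stayed at 0 under each setting tried with that tool. DESeq2 called 0, 0 and 2 members in Selp_high over Selp_low, Selp_high over yHSC and Selp_low over yHSC, beside 2.28%, 2.78% and 2.95% of all genes. With the replicate block it called 2, 1 and 2 members. The share of all genes was then 9.45% in Selp_high over Selp_low and is not given here for the comparisons with yHSCs. The replicate block in edgeR changed no call. Over all genes, same-numbered yHSC and paHSC libraries had correlations of -0.36 to 0.09, although replicate 1 was the lowest in all 3 groups for 18 of 48 members. Neither the labels nor these correlations pair them. The block fits with yHSCs, which pair by number all the same, are therefore given only as alternative settings. voom with quality weights called 2 members in Selp_low over yHSC, where its share of all genes is not given here. DESeq2 called 1 of the other chromatin genes in Selp_high over Selp_low. With a library left out, calls over all genes reached 2400, 836 and 2510 in the 3 comparisons. The members called in such fits ranged from 0 to 1, 0 to 2 and 0 to 4. What caused these ranges was not tested.

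Unscaled library totals moved the median of all genes from -0.11 to 0.37 in Selp_high over Selp_low and from 0.08 to -0.47 in Selp_low over yHSC, and the members' medians to 0.50 and -0.81. Members without overlap then numbered 11 higher and 0 lower, and 0 higher and 16 lower. RLE factors left 1 and upper-quartile factors 0 members higher without overlap in Selp_low over yHSC. In Selp_high over Selp_low, library totals turned the log2 fold changes of *Asxl1* (0.38), *Ctcf* (0.14) and *Sirt7* (0.11), and voom that of *Asxl1* (0.39). In Selp_low over yHSC they turned those of *Ctcf* (-0.53), *Eed* (-0.29) and *Sirt7* (-0.11), and dropping the filter turned *Ctcf* to -0.040. Libraries left out gave -0.60 to 0.20 for *Asxl1* and -0.90 to 1.46 for *Ctcfl* in Selp_high over Selp_low, -0.48 to 3.499 for *Ctcfl* in Selp_high over yHSC, and -0.62 to 0.083 for *Asxl1*, -0.050 to 0.072 for *Ctcf* and -0.58 to 0.055 for *Tet2* in Selp_low over yHSC.

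With 3 libraries per group the smallest exact p is 0.1, and *Ctcfl* had at most 48 counts in a library.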
